A study of Mus musculus with 6 samples.

Results

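Complement is a system of proteins that mark surfaces for uptake or lysis, and the 9 genes described here encode parts of it or, for Csmd3, a membrane protein built from the CUB and sushi domains that complement proteins carry. The list holds the 3 chains of C1q (C1qa, C1qb, C1qc), the central components C3 and C4b, the receptors C3ar1 and C5ar1, the alternative pathway protein properdin (Cfp) and Csmd3. It was chosen by gene name and from an earlier comparison of the same libraries, in which Csmd3 stood among the genes with the clearest difference between genotypes. The difference between genotypes is therefore given for these 9 genes as a description, with no test. Values for 7 of the 9 were used, of 11881 genes in the count table, and C3 and C4b were not analysed here. A filter on low counts kept 6 of the 7, all but Cfp, and 10832 genes in all.

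The cells were microglia, the resident macrophages of the brain, from the hippocampus of male mice aged 17 to 21 days after birth, sorted as positive for CD11b and low in CD45. Bulk RNA-seq was made from 3 mice labelled WT and 3 mice labelled Mll5+/-, heterozygous for loss of Mll5 (now Kmt2e). The labels give no other allele, treatment or strain, and do not say how the gene was disrupted. Kmt2e itself, on chromosome 5 from 23639439 to 23709233 (mm39), had 480, 378 and 688 CPM (read counts scaled to a common library size) across WT-labelled libraries, and 648, 298 and 513 CPM across Mll5+/- ones. Its whole-gene count was thus not lower by a copy's worth (log2 fold change -0.08, SE 0.314), and every direction given here is between libraries as labelled. Libraries held between 21075570 and 29730400 counts. All 8 microglial markers looked at were present in every library, with Tmem119 between 197 and 232 CPM and Cx3cr1 between 1200 and 1711 CPM. P2ry12 was less even, between 1087 and 5499 CPM. In a bulk sample, fewer cells of a type and less RNA per cell cannot be told apart.

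In the classical pathway C1q binds a surface and its attached proteases cleave C4 and C2, which leads to cleavage of C3. C3 fragments left on the surface are read by receptors such as CR3, the integrin of Itgam and Itgb2. The small fragments C3a and C5a act on the receptors C3ar1, C5ar1 and C5ar2. Microglia are the main source of C1q in the brain, and C1q and CR3 are known for their part in the removal of synapses during postnatal development. Regulators such as Crry (Cr1l) limit C3 cleavage on the body's own cells.

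The 3 C1q genes lie side by side on chromosome 4 (mm39). In the deposited coordinates C1qb runs from 136607440 to 136613498, C1qc from 136617115 to 136620376 and C1qa from 136623228 to 136626114, with 3616 bp between C1qb and C1qc and 2851 bp between C1qc and C1qa, a span of 18675 bp. RefSeq promoter sequences were at hand for C1qb and C1qc, among other listed genes, and not for C1qa. The C1qb and C1qc sequences are shown because the C1q genes moved together across libraries, and a shared control was not tested. They cover 250 bases before to 50 bases after the start site on the minus strand of another build, GRCm38.p6, at chr4:136886151-136886450 for C1qb and chr4:136892865-136893164 for C1qc. Capitals mark the core letters GAGGAA (reverse strand TTCCTC) bound by PU.1, a factor of myeloid cells, and the recognition letters TGCTGA (reverse strand TCAGCA) bound by MAF factors.
C1qb: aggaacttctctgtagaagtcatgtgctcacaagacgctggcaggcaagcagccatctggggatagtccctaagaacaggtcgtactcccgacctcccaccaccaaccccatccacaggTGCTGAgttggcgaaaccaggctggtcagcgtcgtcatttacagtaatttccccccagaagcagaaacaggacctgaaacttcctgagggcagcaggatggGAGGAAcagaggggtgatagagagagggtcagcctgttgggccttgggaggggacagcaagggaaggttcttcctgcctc
C1qc: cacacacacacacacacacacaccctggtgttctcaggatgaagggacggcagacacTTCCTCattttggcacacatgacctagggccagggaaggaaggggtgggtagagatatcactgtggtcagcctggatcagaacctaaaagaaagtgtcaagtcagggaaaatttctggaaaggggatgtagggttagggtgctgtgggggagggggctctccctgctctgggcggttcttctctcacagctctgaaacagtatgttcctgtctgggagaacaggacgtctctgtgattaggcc
The PU.1 letters began 30 bases before the start site in C1qb (position -30) and at position -193, on the reverse strand, in C1qc. The MAF letters occurred in C1qb at position -131 and not in the C1qc window. Among all 32851 RefSeq promoters of this length, 28.3% held the PU.1 letters and 19.5% the MAF letters on either strand, so a match by itself is common. Other listed genes held them too: the MAF letters were in the windows of C3ar1 (position -144) and C5ar1 (position -17). The PU.1 letters were in that of Cfp (positions 7 and 23). The interferon-stimulated response element, found in 3.44% of promoters, had no match in the C1qb or the C1qc window.

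C1q was abundant in every library, and its levels did not separate the genotypes. C1qc had 1205, 1492 and 1917 CPM across WT-labelled libraries, and 1553, 1699 and 1300 CPM across Mll5+/- ones. C1qb had 346, 426 and 456 CPM against 397, 434 and 373 CPM, and C1qa had 131, 171 and 227 CPM against 163, 218 and 166 CPM (WT-labelled libraries first). For each chain the lowest and the highest library were both labelled WT, replicates 1 and 3, and the libraries labelled Mll5+/- fell between them. By mean level, C1qc ranked 69 among the 11881 genes.

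The genotype means of the chains differed by less than their spread. C1qa had 177 ± 48.2 CPM across WT-labelled libraries, and 182 ± 30.8 CPM across Mll5+/- ones (SD, n = 3 each), C1qb 409 ± 56.6 and 402 ± 30.7 CPM, and C1qc 1538 ± 358 and 1517 ± 202 CPM (n = 3 each). On the log2 scale the differences, Mll5+/- minus WT, were 0.05 (SE 0.259) for C1qa, -0.03 (SE 0.179) for C1qb and -0.02 (SE 0.197) for C1qc. Summed over the 3 chains, C1q had 2124 ± 460 against 2101 ± 256 CPM (SD, n = 3 each), and the log2 difference was -0.02 (SE 0.185). The signs of these near-zero differences depended on single libraries: without WT replicate 3 the difference of the sum was 0.15, and without WT replicate 1 it was -0.17.

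Read against all genes, 1 of the 6 listed genes that passed the filter, Csmd3, had genotypes without overlap, where 9.32% of the 10832 genes tested did in either direction and 4.64% in the direction of lower levels in Mll5+/-. As the same comparison chose the gene, nothing is read from that share. The median log2 fold change was 0.01 over the 6 and 0.02 over all genes tested.

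**Figure D1:**
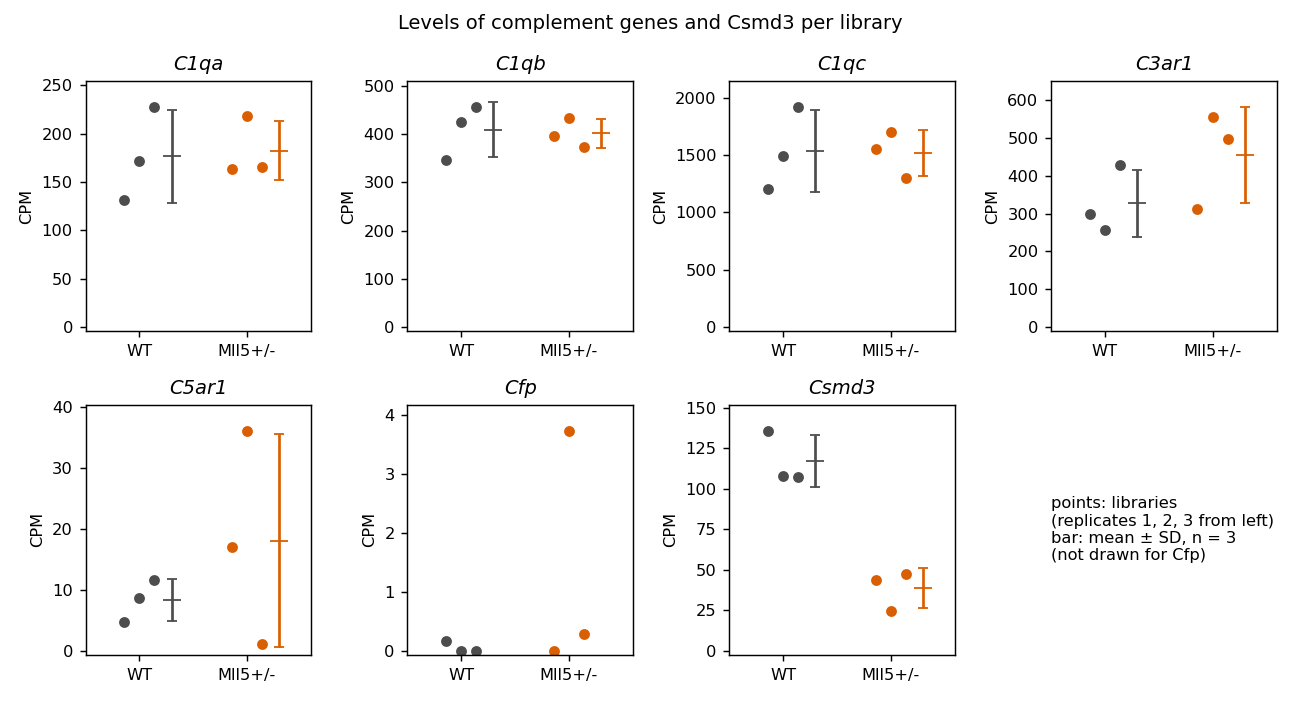
Level (CPM, linear axis from 0) of the 7 genes with values in each of the 6 libraries. Points are libraries, and bars are the mean ± SD of 3 libraries, left out for Cfp. The genotypes are apart in Csmd3, where the lowest library labelled WT has 108 CPM and the highest labelled Mll5+/- has 47.5 CPM, and overlap in the other 6.

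The chains varied together. The summed C1q level ran from 1682 to 2600 CPM, a ratio of 1.55 between the highest and the lowest library, whereas the ratio of C1qc to C1qb ran from 3.48 to 4.21 and that of C1qc to C1qa from 7.79 to 9.50. Expressed as a coefficient of variation over the 6 libraries, C1qa varied by 20.2%, the summed chains by 15.8% and the ratio of C1qc to C1qa by 8.14%. C1qb varied less, by 10.1%, and its ratio to C1qa by 11.5%. Across the 6 libraries, log2(CPM + 1) of C1qb and C1qc had a Pearson r of 0.94 (Spearman rho 0.94), C1qa and C1qc 0.92 (rho 0.83) and C1qa and C1qb 0.92 (rho 0.94), out of 15 pairs of listed genes compared. Without the 2 libraries farthest from the median of the first gene of a pair, these were 0.83, 0.75 and 0.85. All points share their libraries, and these coefficients are a description.

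The order of the libraries by C1q was close to their order by depth. WT replicate 3 was highest and Mll5+/- replicate 2 second in both, at 29730400 and 28053173 counts, and WT replicate 1 and Mll5+/- replicate 3, at 23884734 and 21075570 counts, were the 2 lowest in both. The CPM scale already divides by library size, and the part of depth in the C1q level was not tested.

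Levels of different genes were compared per kb, with the length of the longest protein-coding transcript in GENCODE M21. On this scale C1qc had 1270 CPM per kb on average over the 6 libraries, C1qb 373 and C1qa 173. C1qc thus made up between 68.2% and 71.4% of the C1q signal per length in each library, C1qb between 18.8% and 22.0% and C1qa between 8.67% and 10.4%. The protein is assembled from equal numbers of the chains. These are shares of read signal, and effects of amplification or counting that differ between genes were not tested, here or in the comparisons between genes below. C3ar1 followed with a mean of 91.0 CPM per kb. It lay below C1qa in each of the 6 libraries, although the ranges of the pair over all libraries, 59.8 to 129 and 126 to 218 CPM per kb, just touched. Csmd3 and C5ar1 came next with 5.98 and 5.20 CPM per kb, and their order differed between libraries: Csmd3 was the higher in all 3 WT-labelled libraries and in Mll5+/- replicate 3, and C5ar1 in Mll5+/- replicates 1 and 2. Cfp was the lowest with 0.425 CPM per kb.

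**Figure D2:**
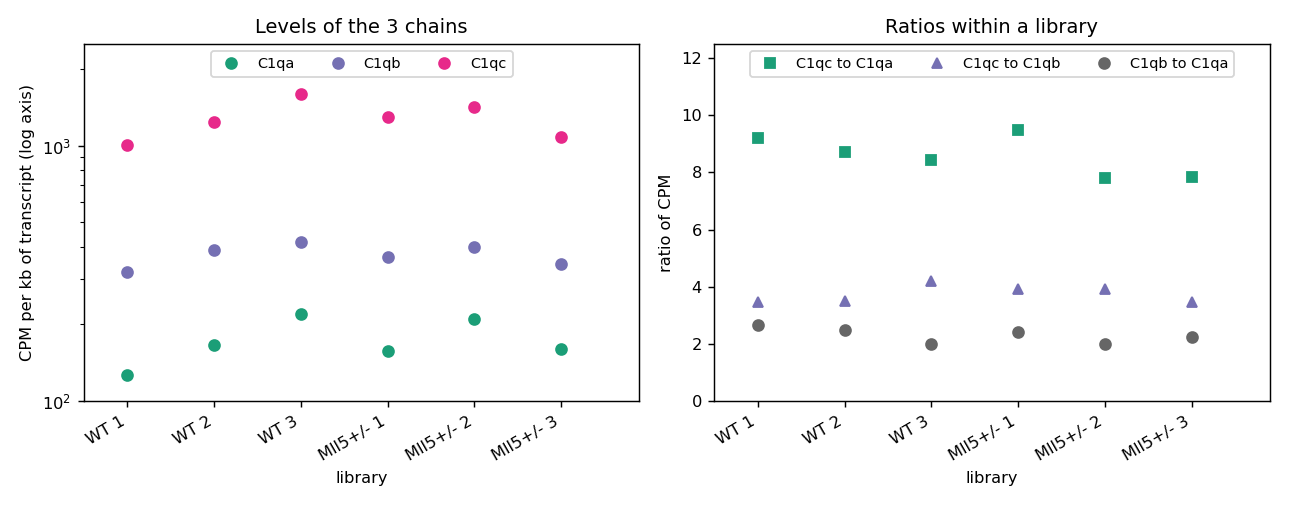
Left, CPM per kb of transcript (log axis) of C1qa, C1qb and C1qc in each library. Right, the ratio of CPM (linear axis from 0) between the chains within a library. The 3 chains keep the order C1qc, C1qb, C1qa in all 6 libraries, and C1qc to C1qb stays between 3.48 and 4.21.

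Within genotypes, each chain varied less than the median gene of at least 50 CPM. Of the 2938 tested genes with a mean of at least 50 CPM, 10.4% had a smaller within-genotype SD of log2(CPM + 1) than C1qb, 34.8% than C1qc and 47.0% than C1qa. The shares were 63.5% for C3ar1 and 58.5% for Csmd3. The genes whose pattern over the 6 libraries was most like the summed C1q chains, by Pearson r among 6710 genes with a mean of at least 10 CPM, were Tmem59 (r = 0.99), Atp13a3 (0.99) and Cox7a2 (0.99). Tmem59 ran from 61.8 CPM in WT replicate 1 to 145 CPM in WT replicate 3. Calr, which encodes calreticulin, a chaperone that also binds C1q, had r = 0.96 and was number 14 in that order. With 6 points, such values are a description of these libraries.

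Of the genes upstream of C3, those with values here were few, and the others were not analysed. Among 5 genes of the C1 proteases, C1ra and C1rl had values. C1rl, a C1r-like protease, had 14.1 ± 5.35 CPM across WT-labelled libraries, and 9.13 ± 5.53 CPM across Mll5+/- ones (SD, n = 3 each; log2 fold change -0.63, SE 0.690, edgeR unadjusted p = 0.387). C1ra ran from 0 to 4.37 CPM. Of 9 lectin pathway genes, Masp2 had values, of up to 0.847 CPM. Cfb, factor B of the alternative pathway, had 32, 46 and 0 counts across WT-labelled libraries and no count across Mll5+/- ones, where 3 counts correspond to between 0.105 and 0.142 CPM.

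Cfp, which stabilises the C3-cleaving enzyme of the alternative pathway, lies on chromosome X from 20791693 to 20797794. It had 4, 0 and 0 counts across WT-labelled libraries, and 0, 106 and 6 counts across Mll5+/- ones. Of its 116 counts in all, Mll5+/- replicate 2 thus held 106, and Cfp did not pass the low-count filter.

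Of the receptors, C3ar1, the receptor for C3a, had a higher mean in the libraries labelled Mll5+/-, with overlap. Its gene is on chromosome 6, at 122824097 to 122833120. It had 299, 257 and 428 CPM across WT-labelled libraries, and 313, 555 and 497 CPM across Mll5+/- ones. The means were 328 ± 88.8 and 455 ± 126 CPM (SD, n = 3 each). The log2 difference was 0.47 (SE 0.272), and it was 0.29 without Mll5+/- replicate 2, 0.31 without WT replicate 2 and 0.71 without WT replicate 3. Macrophages at the brain's borders also express complement receptors, and the 6 of 8 of their markers with values summed to between 265 and 328 CPM across WT-labelled libraries, and between 369 and 692 CPM across Mll5+/- ones. Among them Mrc1 had 93.3, 81.4 and 109 CPM against 80.5, 179 and 190 CPM, with its 2 highest values in the 2 libraries with the highest C3ar1. Stab1, the largest part of the sum, had 218, 245 and 139 CPM against 331, 162 and 489 CPM and was second lowest in Mll5+/- replicate 2, where C3ar1 was highest. Without Stab1 the sums, 83.0 to 126 and 86.1 to 207 CPM, overlapped between genotypes (a sum chosen after seeing the data). F13a1 had 2.13, 0.885 and 14.6 CPM against 1.30, 10.3 and 8.60 CPM and was highest in WT replicate 3. Cd163, Lyve1 and Ms4a7 were at 0 in at least 1 library. The part of border macrophages in the C3ar1 values was not tested.

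C5ar1, a receptor for C5a on chromosome 7 from 15980668 to 15993465, was low and uneven. It had 4.72, 8.66 and 11.7 CPM across WT-labelled libraries, and 17.1, 36.1 and 1.04 CPM across Mll5+/- ones. The libraries labelled Mll5+/- held both the 2 highest values and the lowest. Its log2 difference of 1.11 had an SE of 1.01, and it was 0.11 without Mll5+/- replicate 2 and 1.66 without Mll5+/- replicate 3. Mll5+/- replicate 2 also had the highest level of Cfp (3.72 CPM) and of Itgax (26.1 CPM), the alpha chain of the integrin CR4, which was at 0 in 3 libraries. The 6 of 10 monocyte and neutrophil markers with values summed to between 196 and 258 CPM across WT-labelled libraries, and between 223 and 278 CPM across Mll5+/- ones, with 223 CPM in replicate 2. Most of each sum was Csf3r (181 to 268 CPM). Without it the sums were 9.54 to 46.8 and 10.1 to 44.2 CPM, with 27.8 CPM in Mll5+/- replicate 2 (a sum chosen after seeing the data). Plac8 was highest in that library, at 14.3 CPM, and Ccr2 was at its lowest there, at 6.53 CPM. S100a9, Camp and Ngp were at 0 in at least 1 library.

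C5ar2, the other C5a receptor, lies 2588 bp from C5ar1 on the same chromosome (15968510 to 15978079) and was far more abundant. It had 1185, 1103 and 1377 CPM across WT-labelled libraries, and 1121, 1168 and 1354 CPM across Mll5+/- ones. Per kb of transcript, C5ar2 exceeded C5ar1 by a factor between 24.0 in Mll5+/- replicate 2 and 964 in Mll5+/- replicate 3. Its log2 fold change between genotypes was -0.01 (SE 0.156, edgeR unadjusted p = 0.955).

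None of the other receptors was called at an adjusted p of 0.05 in edgeR's test, which called 0% of all genes, and none had an unadjusted p under 0.05 (2.88% of all genes). Itgam, the alpha chain of CR3, had 877, 701 and 789 CPM across WT-labelled libraries, and 684, 763 and 672 CPM across Mll5+/- ones (log2 fold change -0.16, SE 0.159, edgeR unadjusted p = 0.342). Its partner Itgb2 had 26.1 ± 7.16 and 24.5 ± 15.1 CPM (SD, n = 3 each). The span of Itgam overlaps that of 1 other gene of the table, and reads of overlapping genes may be split between them. Calr had 356, 483 and 661 CPM against 473, 587 and 463 CPM (log2 fold change 0.02, SE 0.241), and Lrp1, an endocytic receptor, had 97.5 ± 27.6 and 99.8 ± 8.56 CPM (SD, n = 3 each). Of the 10 receptors listed, 9 had values and 8 were tested. The log2 fold change was positive for 2 and negative for 6, where 48.2% of all tested genes had a negative value.

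**Figure D3:**
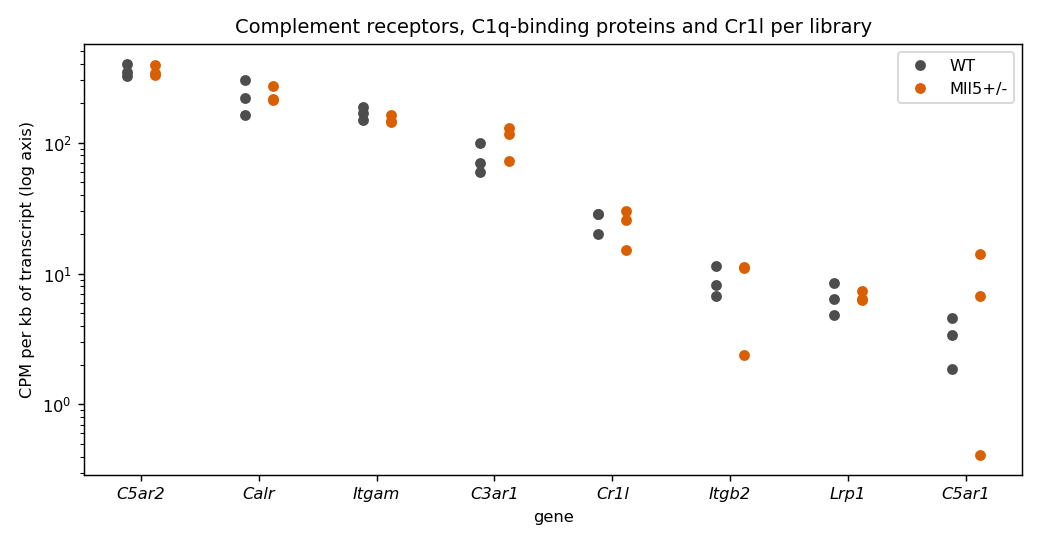
CPM per kb of transcript (log axis) of 6 complement receptors and C1q-binding proteins, C5ar1 and the regulator Cr1l, with 1 point per library. C5ar2 is the highest, between 322 and 402 CPM per kb, and C5ar1 ranges from 0.409 to 14.2 CPM per kb.

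Among the regulators, Clu, clusterin, had genotypes without overlap, lower in Mll5+/-, as did 4.64% of all genes tested. Its level was low, with 92, 98 and 58 counts against 0, 0 and 24 counts (edgeR unadjusted p = 0.200; limma-voom unadjusted p = 0.0211). Cr1l, the membrane regulator Crry, had 71.0 ± 13.3 and 65.1 ± 21.1 CPM, and Cd46 had 10.5 ± 1.28 and 13.4 ± 4.19 CPM (SD, n = 3 each). The genotypes overlapped in both.

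Csmd3 was the listed gene with separate genotypes. It spans 1211427 bp of chromosome 15, from 47444033 to 48655459, and overlaps no other gene of the table. It had 136, 108 and 108 CPM across WT-labelled libraries, and 43.7, 24.6 and 47.5 CPM across Mll5+/- ones, from 3244, 2809 and 3099 counts against 1107, 700 and 1005 counts. Every library labelled Mll5+/- lay below every library labelled WT. The means were 117 ± 16.1 and 38.6 ± 12.3 CPM (SD, n = 3 each) and the log2 difference was -1.60 (SE 0.324), between -1.79 and -1.38 when single libraries were left out. As this difference chose the gene, it is given with no test.

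Csmd3 has been described in neurons, among other cells, so markers of several cell types were set beside it. Of 12 neuron markers 3 had values, and they summed to 15.8, 16.6 and 29.3 CPM across WT-labelled libraries, and 10.8, 25.3 and 40.0 CPM across Mll5+/- ones, with Stmn2 at 0 in at least 1 library. Of 9 astrocyte markers 6 had values, with sums of 384 to 567 CPM and 267 to 553 CPM. Among them Gja1 (22.7, 23.2 and 28.6 against 3.51, 6.71 and 1.75 CPM) and Plpp3 (15.5, 11.5 and 23.0 against 3.39, 4.39 and 5.62 CPM) had genotypes without overlap, lower in Mll5+/-, as did 4.64% of all genes tested. The other 4 overlapped, with means lower in Mll5+/- for Slc1a3 and Aqp4 and higher for Slc1a2 (38.3 ± 13.6 against 51.4 ± 32.3 CPM, SD, n = 3 each) and Aldoc, and Aldoc and Aqp4 were at 0 in at least 1 library. The 6 of 9 oligodendrocyte and progenitor markers with values summed to 50.1 to 144 CPM and 44.7 to 53.5 CPM, with Mog, Cldn11 and Ptprz1 at 0 in at least 1 library. The 8 microglial markers summed to between 8722 and 12862 CPM across WT-labelled libraries, and between 7037 and 8024 CPM across Mll5+/- ones. P2ry12 had 4269, 1366 and 5499 against 1115, 1232 and 1087 CPM, and without it the sums, 6736 to 7363 and 5950 to 6792 CPM, overlapped between genotypes (a sum chosen after seeing the data). The genotypes of P2ry12 did not overlap. Tmem119 had genotypes without overlap in the other direction, with 197, 221 and 204 CPM against 223, 232 and 222 CPM, so that 221 and 222 CPM were the nearest values. Of all genes tested, 9.32% had genotypes without overlap in either direction. The neuron sums overlapped between genotypes, and the part of any of these cells in the Csmd3 level was not tested.

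The relatives of Csmd3 were far lower. Csmd1 had at most 0.346 CPM and Csmd2 at most 3.81 CPM, and both were at 0 in all 3 libraries labelled Mll5+/- and in 1 of those labelled WT, so no fold is given. Of the other CUB or sushi genes, Susd6 had 25.2, 87.2 and 48.1 CPM against 13.7, 72.4 and 32.9 CPM and Susd3 23.3, 16.7 and 19.5 CPM against 22.6, 21.7 and 31.5 CPM, with overlap in both. The genes most like Csmd3 over the 6 libraries were Ing3 (r = 0.98), Idnk (0.98) and Ggt5 (0.98). Ing3 had 140, 120 and 112 CPM across WT-labelled libraries, and 84.1, 73.4 and 87.6 CPM across Mll5+/- ones. Likeness to Csmd3 was the rule that chose these genes, so their separation of genotypes is no separate result.

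Beyond the 9 genes, 59 further genes of complement and of the CUB and sushi families were listed, of which 23 had values and 17 passed the filter; the other 36 were not analysed here. None of the 17 passed an adjusted p of 0.05 in edgeR's quasi-likelihood test or had an unadjusted p under 0.05. Over all genes edgeR called 0% and had 2.88% under an unadjusted p of 0.05. Limma-voom called 0% of all genes and none of the 17, with 1 of them, Clu, under an unadjusted p of 0.05. DESeq2, run without the low-count filter, called 0.25% of the 11608 genes to which it gave a p and none of the 23 further genes with values. Among these, Itgax and Sez6l had no DESeq2 p and Csmd1 no adjusted p, so they could not be called. Of these 23, 1 gene, Csmd2, was under an unadjusted p of 0.05. The 9 genes are not part of these counts. Genotypes did not overlap for 1 of the 17, Clu. The log2 fold change was negative for 13 of the 17, with a median of -0.16, where 48.2% of all tested genes had a negative value. In 9 of these 13 the SE exceeded the size of the fold change.

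**Figure D4:**
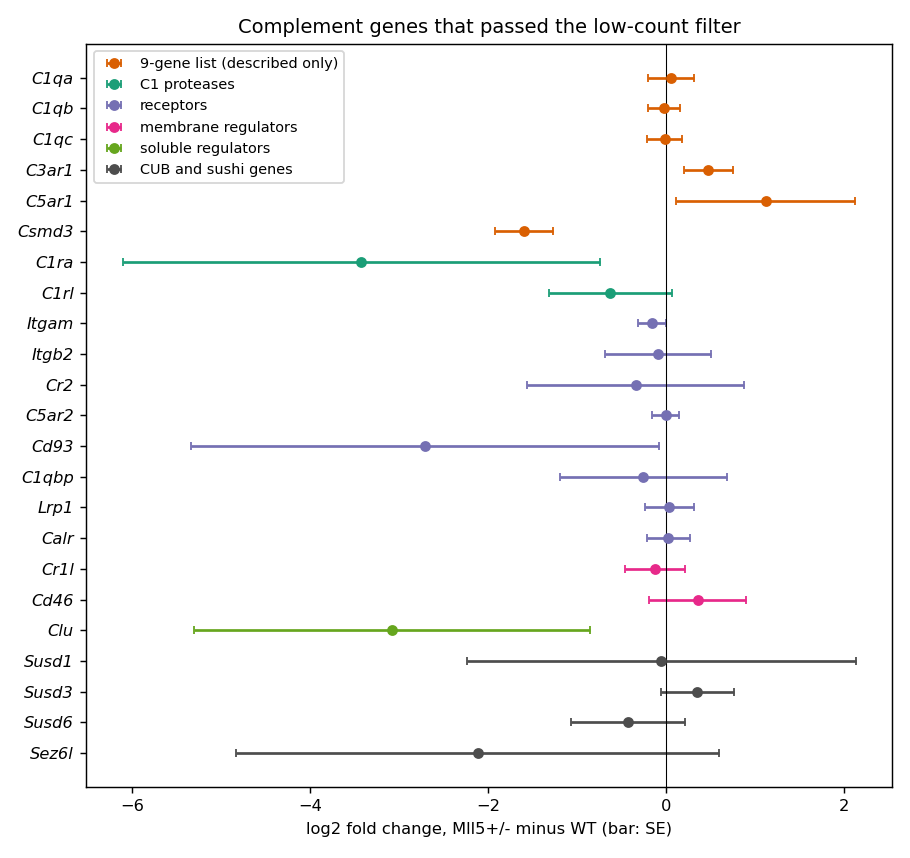
Log2 fold change (Mll5+/- minus WT, edgeR) with its SE as a bar for the 23 complement genes that passed the low-count filter, coloured by role. Abundant genes such as the C1q chains, C5ar2 and Calr sit within 0.05 of 0 with short bars, Csmd3 lies at -1.60, and rare genes such as C1ra and Cd93 have bars over 2 units to either side.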

How the data were processed

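RNA was extracted with TRIzol, amplified by SMART-seq and made into libraries with a transposase kit, per the labels' protocols. FastQC, STAR, StringTie, DESeq2 and the build mm39 are named in the submitters' processing notes. The authors deposited 1 table of whole-number read counts per gene symbol. No source used here gives the counting step, its use of strand or its versions, so reads of a gene and of a gene overlapping it cannot be told apart.

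Counts were tested with edgeR 4.0.16 (R 4.3.3): low counts filtered by filterByExpr (minimum count 10, total 15), TMM scaling and the robust quasi-likelihood test over all genes, with Benjamini-Hochberg adjustment at 0.05. CPM used TMM library sizes. DESeq2 1.42.0 and limma-voom (limma 3.58.1) with sample weights were alternatives. Of the other complement genes, those with a mean of at least 10 CPM were to be named; rarer ones in the text were chosen after their values were seen. The listed genes, gene lists and marker lists were chosen with earlier results of these data known. Some further complement and marker genes are not reported here and were left out of the lists and their counts; they stayed in the fit over all genes.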

Additional observations from a re-analysis of the deposited data

How the results depend on the processing

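Across all tested genes, edgeR called 0 genes, DESeq2 called 29, and edgeR called between 0 and 2 when single libraries were left out. The call for the other complement genes was 0 under each alternative run. Csmd3 stayed lower in Mll5+/- in each alternative run. As this difference chose Csmd3 and its genotypes did not overlap, its sign could hardly change, and nothing is read from that. C3ar1 and C5ar1 stayed higher, although C5ar1 was near 0 without Mll5+/- replicate 2 (0.11, SE 1.14). C1q, near 0, changed sign: the log2 difference of the summed chains was 0.09 with limma-voom and 0.01 on total counts. No paired analysis was possible because the replicate numbers only follow the order of the samples. There were 3 libraries per genotype, and the common coefficient of biological variation was 80.4%. The smallest edgeR adjusted p over all 10832 genes tested was 0.9995. A gene that was not called may therefore still differ, by a small or a large amount. Genes under 3 counts in a library (0.104 to 0.142 CPM) were at the limit of detection.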
